A study of Mus musculus with 12 samples.

Results

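Polycomb repressive complex 2 (PRC2) was followed here through the mRNAs of 10 of its subunits, Ezh1, Ezh2, Eed, Suz12, Rbbp4, Mtf2, Phf1, Phf19, Jarid2 and Aebp2. The members were fixed by name, and each was read from the probe set whose single annotated symbol matched it. All 10 were found, each with 1 probe set, among 18784 genes with a single symbol. Expression was measured on 12 Affymetrix MoGene 1.0 ST arrays in 4 groups of 3 arrays. The groups were neural progenitor cells (NPC) carrying an shRNA against Jarid1b, NPC carrying a scrambled shRNA, embryonic stem cells (ESC) carrying the Jarid1b shRNA, and ESC carrying the scrambled shRNA. The cells were E14TG2a.4, a mouse ESC line grown without feeder cells in serum and LIF. All groups had been exposed to lentivirus for 16 h and selected with puromycin from 48 h after transduction, so the controls carried an integrated virus as well. The NPC were made from such ESC by a published differentiation protocol named in the labels. A single Jarid1b construct is named in the labels. Nothing says whether arrays of 1 group were separate cultures or transductions, and the p-values therefore reflect array-to-array spread that may be technical.

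PRC2 methylates histone H3 at H3K27, a mark of repressed developmental genes. Ezh2 or its relative Ezh1 carries the catalytic SET domain, Eed reads the mark and stimulates the enzyme, Suz12 is the scaffold, and Rbbp4 is a histone-binding WD repeat protein. Accessory proteins define complex subtypes. The Polycomb-like proteins Phf1, Mtf2 and Phf19 mark one subtype, and Jarid2 with Aebp2 marks the other. In ESC the complex sits on CpG-rich promoters of lineage genes, and cells without it differentiate poorly.

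The 250 bases before the annotated start of 3 subunit genes are shown because the catalytic subunits Ezh1 and Ezh2 moved unequally between the states and Phf19 had the largest measured difference on knockdown. Sequences are from RefSeq (GRCm38.p6), 5′ to 3′ on the gene's strand. Capitals mark matches to CCAAT or to the E2F-type words TTTGGCGC, TTTCGCGC, TTTCCCGC and TTTGCCGC, on either strand. The CCAAT and E2F-type words did not overlap each other.
Ezh2, chr6:47595031-47595280, minus strand: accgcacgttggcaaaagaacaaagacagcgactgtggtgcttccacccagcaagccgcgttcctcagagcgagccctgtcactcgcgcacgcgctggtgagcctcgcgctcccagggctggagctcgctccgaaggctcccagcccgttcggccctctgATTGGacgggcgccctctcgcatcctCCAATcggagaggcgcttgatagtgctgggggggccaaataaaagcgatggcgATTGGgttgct
Ezh1, chr11:101226464-101226713, minus strand: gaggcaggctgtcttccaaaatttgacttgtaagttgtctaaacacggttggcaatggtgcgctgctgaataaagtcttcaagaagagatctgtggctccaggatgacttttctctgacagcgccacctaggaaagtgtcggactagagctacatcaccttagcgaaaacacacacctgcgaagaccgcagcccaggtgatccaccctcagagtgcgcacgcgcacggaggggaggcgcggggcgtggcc
Phf19, chr2:34913977-34914226, minus strand: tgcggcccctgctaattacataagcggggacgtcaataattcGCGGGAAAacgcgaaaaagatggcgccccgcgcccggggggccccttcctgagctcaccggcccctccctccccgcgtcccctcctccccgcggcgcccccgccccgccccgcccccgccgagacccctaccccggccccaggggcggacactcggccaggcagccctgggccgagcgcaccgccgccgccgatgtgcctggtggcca
The Ezh2 window held 3 CCAAT matches, which start 90, 64 and 11 bases before the gene's start. The Ezh1 window held 0 matches of either kind. The Phf19 window held 1 E2F-type match and 31 CpG dinucleotides, against 23 in the Ezh2 window and 14 in the Ezh1 window. Among 14 annotated start windows of the 10 genes, 6 held CCAAT and 2 held an E2F-type word. Of all 32851 mouse windows of the same length, 33.8% held CCAAT and 1.9% held an E2F-type word, and the median CpG count was 6. A match is a description of the letters and was not tested for binding.

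The labels were checked first. Kdm5b, the current symbol of Jarid1b, lay at 10.38, 10.48 and 10.54 in Jarid1b shRNA NPC, against 11.24, 11.15 and 11.30 in scrambled NPC, on the log2 scale of the deposited values. It lay at 10.64, 10.90 and 10.50 in Jarid1b shRNA ESC, against 12.25, 12.47 and 12.50 in scrambled ESC. Each knockdown array was below each control array of its state. The 8 neural progenitor markers, Pax6 and Nes among them, were higher in NPC with either construct. All 10 pluripotent stem cell markers were lower there. Against ESC, 7 of 8 neuron markers rose and 1 fell with each construct, and 5 of 8 endoderm markers rose and 0 fell. Of 8 endothelial markers 1 rose and 2 fell with the Jarid1b shRNA, and 6 rose and 2 fell with the scrambled shRNA. Of 7 mesenchyme markers 2 rose with the Jarid1b shRNA and 6 with the scrambled shRNA, and 0 fell. Of 6 glial markers 1 rose and 1 fell with each. Of all genes, 23.8% rose with the Jarid1b shRNA and 23.5% with the scrambled shRNA. The mean level of the pluripotency markers was 7.71 to 8.56 in Jarid1b shRNA NPC and 6.87 to 7.54 in scrambled NPC, with ESC arrays at 12.34 to 12.47. On knockdown in NPC, where 1.03% of all genes passed the test, 4 of the 8 endothelial markers fell. Their list mean was 6.36 to 6.74 in Jarid1b shRNA NPC, against 7.17 to 8.10 in scrambled NPC. Relative to scrambled NPC, all 8 germ cell markers and 4 of the 10 pluripotency markers rose in Jarid1b shRNA NPC. The germ cell list had a median change of 2.00 and a mean level of 8.15 to 8.91 in Jarid1b shRNA NPC, against 6.196 to 6.81 in scrambled NPC. The ESC already had this list at 9.04 to 9.44 with the Jarid1b shRNA and 8.67 to 8.83 with the scrambled shRNA. Against ESC, 1 of the 8 germ cell markers rose and 6 fell with the Jarid1b shRNA, and 1 rose and 7 fell with the scrambled shRNA. The part of these markers in the subunit values, between the states or on knockdown, was not tested. Across genes, array pairs of 1 group had correlations of 0.992 to 0.997.

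Between stem cells and neural progenitors the subunit mRNAs changed unevenly. Protein, complex assembly and H3K27 methylation were not measured on these arrays. Ezh1, Eed, Suz12, Mtf2, Phf19 and Jarid2 fell in NPC with both constructs, by 1.50-fold to 3.05-fold, while Ezh2, Rbbp4 and Aebp2 did not pass the test with either. Phf1 rose with the scrambled shRNA. Of the 10 genes, 0 rose and 6 fell in Jarid1b shRNA cells, and 1 rose and 6 fell in scrambled cells (limma, adjusted p under 0.05 over all genes). The same 6 genes fell with both constructs, which share no array. Over all genes, 48.8% passed the test with the Jarid1b shRNA and 48.6% with the scrambled shRNA, so a share of about this size was the background for any list. Falls alone made up 25% of all genes with the Jarid1b shRNA and 25.1% with the scrambled shRNA, and rises alone 23.8% and 23.5%. The median change of the 10 genes was -0.70 with the Jarid1b shRNA and -0.71 with the scrambled shRNA, while that of all genes was -0.068 and -0.042.

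**Figure D1:**
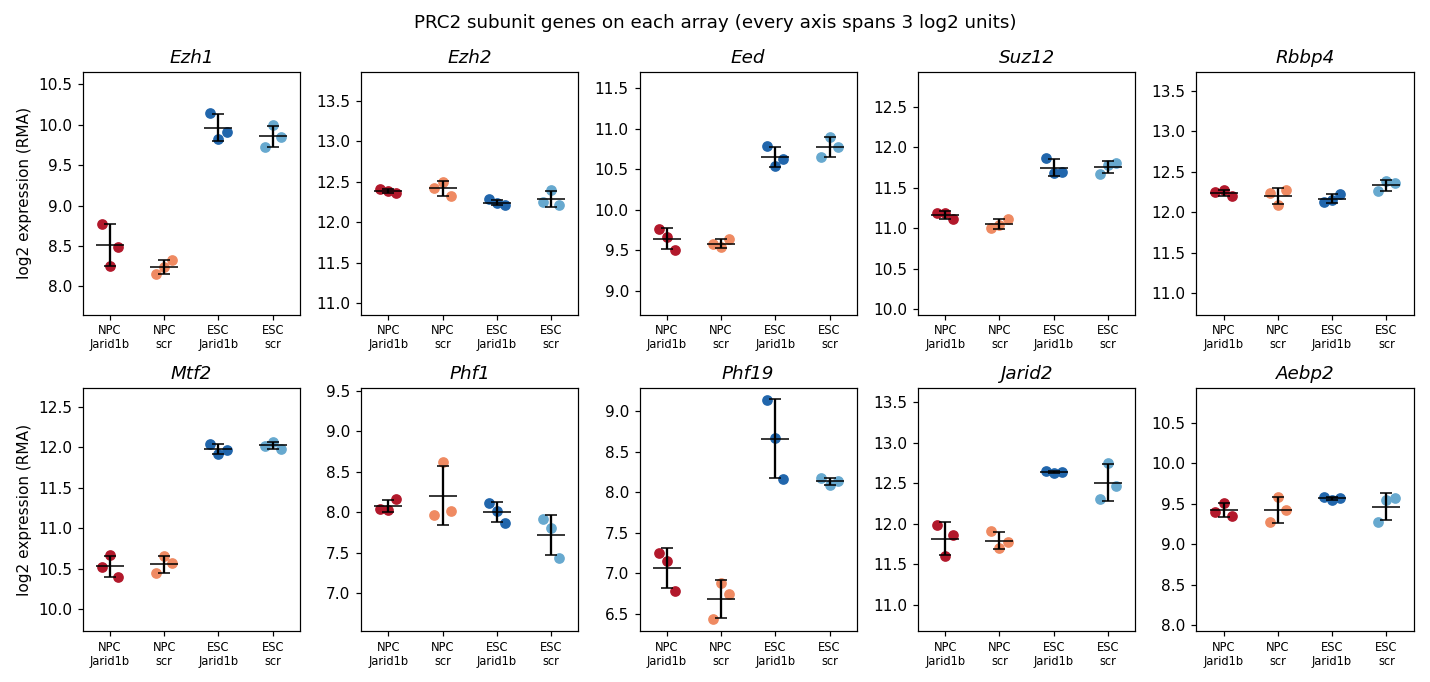
Log2 expression of the 10 PRC2 subunit genes on each array (points), with the group mean and SD (bars), for NPC and ESC carrying the Jarid1b or the scrambled (scr) shRNA. Each vertical axis spans 3 log2 units, so step heights compare between panels. Ezh1, Eed, Suz12, Mtf2, Phf19 and Jarid2 step down in NPC, and Ezh2 and Rbbp4 stay between 12.08 and 12.50 on all arrays.

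Of the catalytic subunits, Ezh1 fell and Ezh2 did not pass the test. Ezh1 lay at 8.78, 8.26 and 8.49 in Jarid1b shRNA NPC, against 10.14, 9.83 and 9.91 in Jarid1b shRNA ESC. In scrambled cells it lay at 8.16, 8.24 and 8.33 in NPC, against 9.73, 9.99 and 9.84 in ESC. Every NPC array was more than 1 log2 unit below every ESC array carrying the same construct, without overlap. Ezh1 was 2.74-fold lower in NPC with the Jarid1b shRNA (-1.45 ± 0.13, SE, adjusted p = 7.46e-07 by limma) and 3.05-fold lower with the scrambled shRNA (-1.61 ± 0.13, SE, adjusted p = 2.59e-07). In size the scrambled change exceeded that of 93.0% of genes.

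Ezh2, the main methyltransferase of dividing cells, lay at 12.41, 12.38 and 12.36 in Jarid1b shRNA NPC, against 12.28, 12.24 and 12.21 in Jarid1b shRNA ESC. In scrambled cells it lay at 12.43, 12.50 and 12.33 in NPC, against 12.25, 12.40 and 12.22 in ESC. The groups did not overlap with the Jarid1b shRNA and overlapped with the scrambled shRNA. The change was 0.14 (95% interval -0.035 to 0.32, adjusted p = 0.172 by limma) and 0.13 (-0.045 to 0.31, adjusted p = 0.216). On the array scale these intervals hold a rise of up to 0.32 and leave no room for a fall like that of Ezh1. The group means of Ezh2 lay at percentiles 98.4 to 99.0 among genes, and those of Rbbp4 at 98.2 to 98.6. Small differences can be compressed near that end of the scale. With quantile normalization the scrambled change was 0.23 and passed the test (adjusted p = 0.0461).

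Set against each other on the same array, Ezh1 relative to Ezh2 was lower in NPC by 1.67 log2 units on average. Taken relative to the mean of the scrambled ESC arrays, the difference was -1.20, -1.69 and -1.44 in Jarid1b shRNA NPC, -1.84, -1.83 and -1.56 in scrambled NPC and 0.30, 0.022 and 0.14 in Jarid1b shRNA ESC. The scrambled ESC arrays themselves lay at -0.088, 0.026 and 0.062. All 6 NPC arrays were below all 6 ESC arrays (exact two-sided permutation test, states exchanged within each construct, p = 0.005, the smallest that 400 regroupings can give). Within 1 construct alone 3 arrays against 3 cannot go below p = 0.1 in this exact test. Since the Ezh2 values given above varied little, the separation largely restates the fall of Ezh1 and is not separate evidence.

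**Figure D2:**
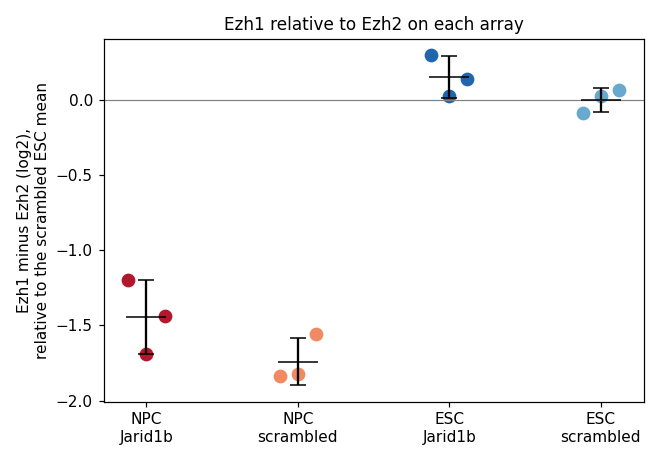
Log2 difference of Ezh1 and Ezh2 on each array (points), relative to its mean over the scrambled ESC arrays, with group mean and SD (bars). The 6 NPC arrays lie between -1.84 and -1.20 and the 6 ESC arrays between -0.088 and 0.30.

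Of the core partners of the enzyme, Eed and Suz12 fell and Rbbp4 did not pass the test. Eed lay at 9.76, 9.66 and 9.51 in Jarid1b shRNA NPC, against 10.78, 10.54 and 10.62 in Jarid1b shRNA ESC. In scrambled cells Eed lay at 9.57, 9.54 and 9.63 in NPC, against 10.65, 10.90 and 10.78 in ESC. The states did not overlap, and Eed was 2.01-fold lower with the Jarid1b shRNA (SE of the log2 change 0.098, adjusted p = 1.66e-06 by limma) and 2.29-fold lower with the scrambled shRNA (-1.19 ± 0.098, SE, adjusted p = 2.97e-07). Suz12 lay at 11.20, 11.19 and 11.11 in Jarid1b shRNA NPC, against 11.87, 11.68 and 11.70 in Jarid1b shRNA ESC. In scrambled cells Suz12 lay at 10.999, 11.05 and 11.12 in NPC, against 11.67, 11.79 and 11.80 in ESC. Here too the states did not overlap, with a smaller step of 1.50-fold (-0.58 ± 0.083, SE, adjusted p = 5.35e-05 by limma) with the Jarid1b shRNA and 1.62-fold (-0.70 ± 0.083, SE, adjusted p = 9.46e-06) with the scrambled shRNA.

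Rbbp4, which also serves other chromatin complexes, lay at 12.25, 12.27 and 12.20 in Jarid1b shRNA NPC, against 12.13, 12.15 and 12.22 in Jarid1b shRNA ESC. In scrambled cells it lay at 12.24, 12.08 and 12.28 in NPC, against 12.26, 12.38 and 12.36 in ESC. The states overlapped with both constructs. The change was 0.072 (95% interval -0.10 to 0.25) with the Jarid1b shRNA and -0.13 (-0.31 to 0.045) with the scrambled shRNA, and neither passed the test (limma adjusted p = 0.496 and 0.216).

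The mRNAs of the Polycomb-like proteins, which bind DNA at CpG-rich sites, split among themselves. Mtf2 lay at 10.52, 10.66 and 10.40 in Jarid1b shRNA NPC, against 12.04, 11.92 and 11.97 in Jarid1b shRNA ESC. In scrambled cells Mtf2 lay at 10.44, 10.65 and 10.57 in NPC, against 12.02, 12.06 and 11.98 in ESC. Its fall had the smallest p of the 10 genes with both constructs, 2.73-fold with the Jarid1b shRNA (-1.45 ± 0.091, SE, adjusted p = 2.54e-08 by limma) and 2.76-fold with the scrambled shRNA (-1.47 ± 0.091, SE, adjusted p = 2.10e-08).

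Phf19 lay at 7.24, 7.15 and 6.78 in Jarid1b shRNA NPC, against 9.14, 8.67 and 8.16 in Jarid1b shRNA ESC. In scrambled cells it lay at 6.43, 6.88 and 6.74 in NPC, against 8.18, 8.09 and 8.13 in ESC. No NPC array reached an ESC array, although the knockdown ESC arrays spread over 0.98 log2 units. The fall was -1.60 ± 0.20 (SE, adjusted p = 1.91e-05 by limma) with the Jarid1b shRNA and -1.45 ± 0.20 (SE, adjusted p = 4.35e-05) with the scrambled shRNA.

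Phf1 lay at 8.04, 8.03 and 8.17 in Jarid1b shRNA NPC, against 8.12, 8.01 and 7.87 in Jarid1b shRNA ESC, and these groups overlapped. In scrambled cells it lay at 7.97, 8.62 and 8.02 in NPC, against 7.92, 7.80 and 7.44 in ESC, where the groups did not overlap. The change was 0.079 ± 0.17 (SE, adjusted p = 0.722 by limma) with the Jarid1b shRNA and 0.48 ± 0.17 (SE, adjusted p = 0.0264) with the scrambled shRNA. The scrambled rise rested on single arrays, since it was 0.27 without scrambled NPC replicate 2 (adjusted p = 0.115) and 0.34 without scrambled ESC replicate 3 (adjusted p = 0.124). From the 6 scrambled arrays alone it was not called without a replicate block (adjusted p = 0.0790) and was called with one (adjusted p = 0.0323). The step was not shown to differ between the constructs (difference -0.41 ± 0.23, SE, adjusted p = 0.441).

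Of the genes of the other subtype, Jarid2 fell and Aebp2 did not pass the test. Jarid2 encodes a Jumonji family member that binds nucleosomes and stimulates the enzyme, and Aebp2 encodes a zinc finger protein. Jarid2 lay at 11.99, 11.60 and 11.87 in Jarid1b shRNA NPC, against 12.66, 12.62 and 12.63 in Jarid1b shRNA ESC. In scrambled cells Jarid2 lay at 11.90, 11.69 and 11.77 in NPC, against 12.30, 12.75 and 12.47 in ESC. The states did not overlap, and the change was -0.82 ± 0.12 (SE, adjusted p = 8.81e-05 by limma) with the Jarid1b shRNA and -0.72 ± 0.12 (SE, adjusted p = 0.000268) with the scrambled shRNA. Aebp2 lay between 9.27 and 9.58 on all 12 arrays. Its change was -0.14 (95% interval -0.37 to 0.082) with the Jarid1b shRNA, where the groups did not overlap, and -0.041 (-0.27 to 0.18) with the scrambled shRNA, where they did (limma adjusted p = 0.278 and 0.787).

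**Figure D3:**
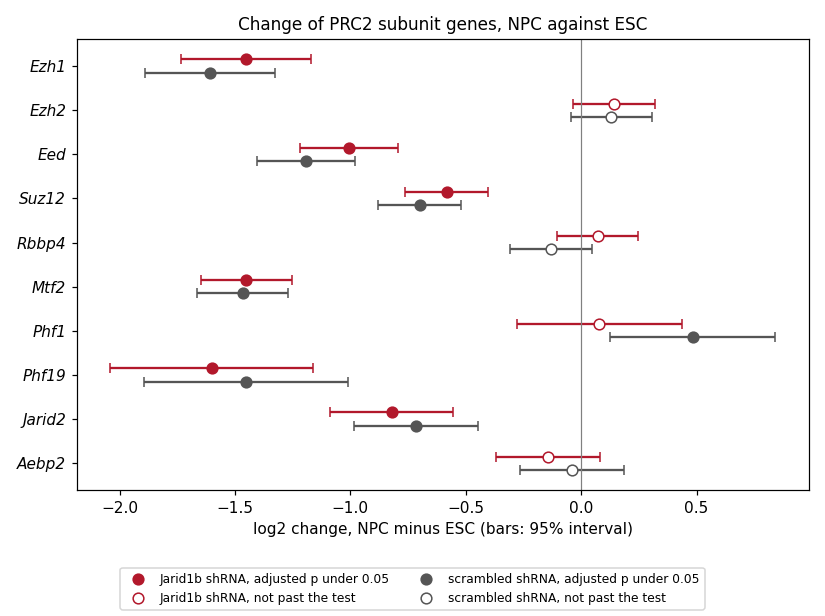
Log2 change in NPC relative to ESC of each PRC2 subunit gene, in Jarid1b shRNA cells (red) and scrambled cells (grey), with 95% intervals. Filled points passed limma's test at an adjusted p under 0.05; 6 genes lie well below 0 with both constructs, from -1.61 to -0.58, and Ezh2, Rbbp4 and Aebp2 lie between -0.14 and 0.14.

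Counted by overlap, 8 of the 10 genes did not overlap between NPC and ESC with the Jarid1b shRNA, where 62.4% of all genes did not, and 7 of 10 with the scrambled shRNA, where 52.3% did not. The values come with no detection calls, and none of the 10 genes had a group mean below the lower quartile of the arrays of that group. Most of the proliferation genes also fell. Of 24 measured, 2 rose and 16 fell in Jarid1b shRNA NPC and 0 rose and 17 fell in scrambled NPC, with Mcm2 at -0.61 ± 0.077 and -0.75 ± 0.077 and Ccne1 at -0.74 ± 0.082 and -1.22 ± 0.082 (SE, limma adjusted p from 4.60e-08 to 1.74e-05). The 2 that rose, named after their values were seen, were Ccne2 (0.93 ± 0.13) and Rrm1 (0.55 ± 0.087, SE, adjusted p = 4.13e-05 and 0.000142). The part of the proliferation genes in the subunit changes was not tested. In these bulk samples, fewer cells with a transcript and less of it per cell cannot be told apart.

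Knockdown of Jarid1b, an H3K4 demethylase, was the study's perturbation, and the question here was whether the subunit genes moved with it. None of the 10 passed limma's test in NPC, in ESC or in the difference of the effects. At an unadjusted p under 0.05 there were 0 in NPC, 1 in ESC (Phf19) and 0 in the difference, against 9.52%, 19.2% and 15.3% of all genes. Over all genes 1.03%, 5.21% and 1.42% passed the adjusted test. The targeted gene itself, on the same arrays, changed by -0.76 ± 0.11 in NPC and -1.73 ± 0.11 in ESC (SE, adjusted p = 0.00524 and 1.82e-05). Its difference of effects passed the test (0.96 ± 0.16, SE, limma adjusted p = 0.0172). The fall of the target mRNA was therefore smaller in NPC, and the states were not compared at an equal knockdown. In NPC 0 of the 10 genes had groups that did not overlap, against 14.2% of all genes, and in ESC 1 of 10, against 24.2%.

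**Figure D4:**
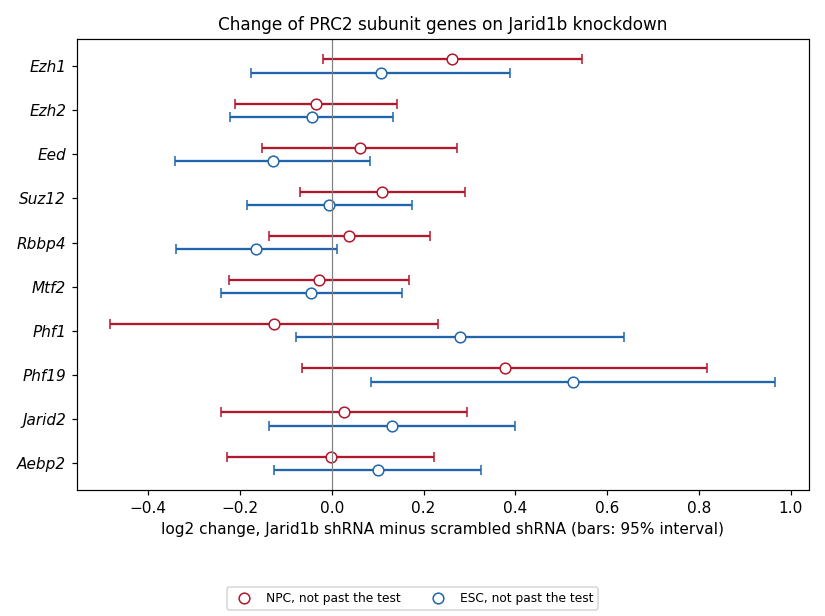
Log2 change of each PRC2 subunit gene on Jarid1b knockdown in NPC (red) and ESC (blue), with 95% intervals. All points are open because none passed limma's test at an adjusted p under 0.05; Phf19 lies furthest from 0 in both states, at 0.38 and 0.53.

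The intervals set how large a missed effect could be, as far as the spread between these arrays goes. They are not adjusted for the number of genes. Where arrays of a group were not separate cultures, they may be too narrow for an effect across cultures. For Ezh2 the change on knockdown was -0.034 in NPC (95% interval -0.21 to 0.14) and -0.044 in ESC (-0.22 to 0.13). For Suz12 it was 0.11 (-0.069 to 0.29) and -0.0057 (-0.19 to 0.17), and for Mtf2 -0.028 (-0.22 to 0.17) and -0.045 (-0.24 to 0.15). For these 3 genes a change of 0.3 or more on the array scale, in either direction, lay outside the interval in both states. Eed, at 0.061 (-0.15 to 0.27) in NPC and -0.13 (-0.34 to 0.084) in ESC, Jarid2, at 0.026 (-0.24 to 0.29) and 0.13 (-0.14 to 0.40), and Aebp2, at -0.0023 (-0.23 to 0.22) and 0.10 (-0.12 to 0.33), were bounded nearly as closely. The missed thresholds do not show that these genes were equal between the constructs.

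Phf19 had the widest room for a rise in both states. The Phf19 arrays listed above gave 0.38 (95% interval -0.064 to 0.82, adjusted p = 0.647 by limma) in NPC and 0.53 (0.085 to 0.97, adjusted p = 0.167) in ESC. In ESC, Jarid1b shRNA replicates 1 and 2 were above all scrambled arrays and replicate 3, at 8.16, was among them. Without that array the ESC change was 0.77 (adjusted p = 0.0549), and without replicate 1 it was 0.28. Averaged over both states, a comparison added after these values were seen, Phf19 was 0.45 ± 0.14 higher (SE, unadjusted p = 0.00804, adjusted p = 0.120), and 2.95% of all genes passed. Without Jarid1b shRNA ESC replicate 3 this average was 0.57 and passed (adjusted p = 0.0482).

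Ezh1 changed by 0.26 in NPC (95% interval -0.019 to 0.55, adjusted p = 0.591 by limma) and 0.11 in ESC (-0.18 to 0.39, adjusted p = 0.720). In NPC, Jarid1b shRNA replicates 1 and 3 were above all scrambled arrays, and replicate 2 was among them. Without single arrays the Ezh1 change ranged over 0.13 (without Jarid1b shRNA replicate 1) to 0.39 in NPC, and over 0.016 (likewise) to 0.18 in ESC, never called. Phf1 changed by -0.13 in NPC (-0.48 to 0.23) and 0.28 in ESC (-0.077 to 0.64), the widest gap between the states among the 10 genes, which was not called (-0.41 ± 0.23, SE, adjusted p = 0.441). Rbbp4 was the single gene whose arrays did not overlap, in ESC alone, where it was lower on all 3 knockdown arrays (change -0.16, 95% interval -0.34 to 0.012, adjusted p = 0.299). In NPC its change was 0.038 (-0.14 to 0.21), and the difference of the effects was not called (0.20 ± 0.11, SE, adjusted p = 0.434).

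Other Polycomb genes were counted for the setting. Among the other PRC2 partners, 2 rose and 2 fell of 5 in NPC with each construct. Epop, a cofactor of the Polycomb-like subtype that binds elongin, changed by -1.46 ± 0.15 with the Jarid1b shRNA and -1.94 ± 0.15 with the scrambled shRNA (SE, limma adjusted p = 2.30e-06 and 1.51e-07). Lcor rose by 1.23 ± 0.15 and 1.07 ± 0.15 and Lcorl, its relative, by 1.72 ± 0.19 and 1.62 ± 0.19 (SE, adjusted p from 5.46e-06 to 4.81e-05). Each locus also encodes a PRC2-associated isoform, which a gene-level probe set cannot separate.

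The subunit mRNAs of PRC1, the complex that ubiquitinates histone H2A and reads the mark of PRC2, moved in both directions. Of 23 measured subunits, 12 rose and 7 fell in Jarid1b shRNA NPC and 12 rose and 8 fell in scrambled NPC. Yaf2 changed by 2.49 ± 0.11 and 2.21 ± 0.11, Auts2 by 1.86 ± 0.10 and 2.17 ± 0.10, and Bmi1, a ring finger subunit, by 1.98 ± 0.10 with the Jarid1b shRNA (SE, limma adjusted p from 8.05e-10 to 7.88e-09). L3mbtl2 changed by -1.66 ± 0.099 with the scrambled shRNA (SE, adjusted p = 1.41e-08). On knockdown 0 of the 23 passed in NPC, against 1.03% of all genes, and 3 had an unadjusted p under 0.05, against 9.52%. In ESC 2 of the 23 passed, against 5.21%, and 7 had an unadjusted p under 0.05, against 19.2%. The called genes were 1 that rose and 1 that fell, Phc3 by 0.48 ± 0.13 (SE, adjusted p = 0.0483) and Kdm2b, which recruits PRC1 to CpG islands, by -0.73 ± 0.15 (SE, adjusted p = 0.0167).

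Of the H3K27 demethylases, 1 rose and 0 fell of 3 in Jarid1b shRNA NPC and 1 rose and 2 fell in scrambled NPC. The riser was Kdm6b, at 0.66 ± 0.14 and 0.75 ± 0.14 (SE, limma adjusted p = 0.00112 and 0.000428). With the scrambled shRNA Uty changed by -0.98 ± 0.22 and Kdm6a by -0.30 ± 0.087 (SE, adjusted p = 0.00210 and 0.00994). In the H2A deubiquitinase list, which opposes PRC1, 4 rose and 2 fell of 7 with the Jarid1b shRNA and 4 rose and 1 fell with the scrambled shRNA. Its Asxl3 rose by 1.79 ± 0.17 and 1.86 ± 0.17 and Asxl2 changed by -1.25 ± 0.16 and -1.29 ± 0.16 (SE, adjusted p from 7.94e-07 to 1.70e-05). Among 6 measured writers of acetyl or methyl marks that oppose H3K27 methylation, 3 rose and 1 fell with each construct. Nsd2, an H3K36 methyltransferase, rose by 2.36 ± 0.13 and 1.98 ± 0.13, and Nsd1 changed by -0.93 ± 0.12 and -1.19 ± 0.12 (SE, adjusted p from 5.89e-09 to 2.61e-05). On knockdown none of these 3 lists had a called gene in either state (at an unadjusted p under 0.05 there were 0, 1 and 0 in NPC, where 9.52% of all genes were, and 1, 2 and 1 in ESC, where 19.2% were).

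**Figure D5:**
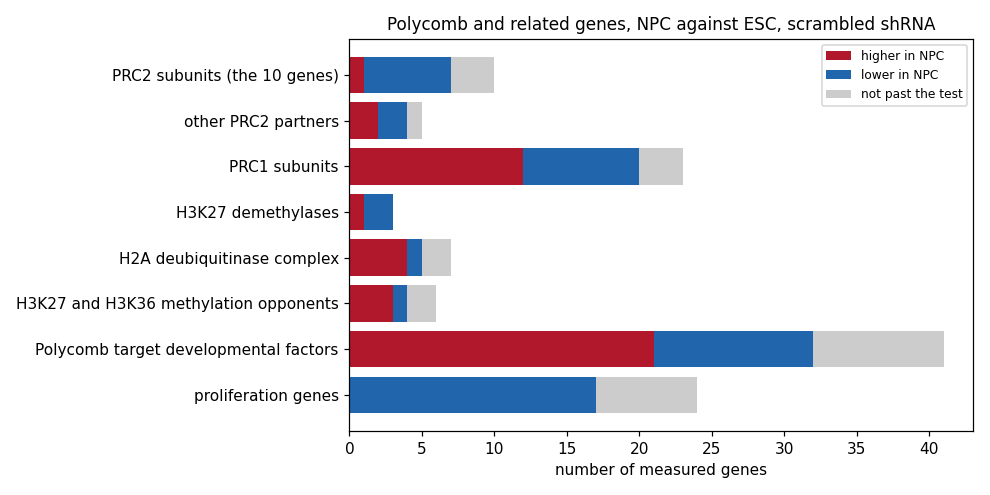
Number of measured genes higher (red), lower (blue) or not past limma's test (grey) in scrambled NPC relative to scrambled ESC, for the 10 PRC2 subunit genes and related lists. The subunits divide into 1 higher and 6 lower, and PRC1 subunits into 12 higher and 8 lower.

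Developmental transcription and signalling genes described as carrying Polycomb marks in ESC were also listed by name. The marks themselves were not measured here. Some members are in the marker lists too, such as Tbx3 among the pluripotency markers and Sox17, Foxa2 and Gata6 among the endoderm markers. Of 41 measured, 19 rose and 6 fell in Jarid1b shRNA NPC and 21 rose and 11 fell in scrambled NPC, with a median change of 0.19 and 0.43. Pax3 rose by 4.60 ± 0.12 and 4.34 ± 0.12 and Irx3, also a homeodomain factor, by 2.75 ± 0.12 and 3.01 ± 0.12, while Otx2 changed by -4.11 ± 0.19 and -4.90 ± 0.19 (SE, limma adjusted p from 1.24e-11 to 1.55e-09). On knockdown in NPC 1 rose and 0 fell, Nkx2-9 (0.97 ± 0.21, SE, adjusted p = 0.0441). In ESC 0 rose and 5 fell, with Neurod1 (-1.05 ± 0.16), Pax6 (-0.91 ± 0.20) and Fgf5 (-1.08 ± 0.24) having the smallest p (SE, adjusted p = 0.00446, 0.0197 and 0.0212). Markers of neural cells moved on the same ESC arrays: of 8 neural progenitor markers 1 rose and 2 fell, Pax6 being in both lists, and of 8 neuron markers 0 rose and 3 fell, Nefl (-1.24 ± 0.20), Map2 (-0.70 ± 0.13) and Tubb3 (-0.56 ± 0.14, SE, adjusted p = 0.00552, 0.0108 and 0.0349). Their part in these falls was not tested. Those shares, 1 and 5 of 41, stand beside 1.03% and 5.21% of all genes. An unadjusted p under 0.05 was found for 15 of the 41 in NPC and 12 in ESC, against 9.52% and 19.2% of all genes. In the difference of the effects it was found for 17, against 15.3%. Past the adjusted test in that difference were 2 genes, against 1.42% of all genes. They were Msx2 (1.22 ± 0.23) and Nkx2-9 (1.34 ± 0.29, SE, limma adjusted p = 0.0314 and 0.0437).

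The genes most like the catalytic subunits over the 12 arrays were found by the root mean square difference after each gene was centred on its own mean, a description with no test. Nearest to Ezh1 were Znrd1as (0.089 log2 units), Acadm (0.12) and Poli (0.13), where Ezh1 itself varied by 0.78 about its mean. With the scrambled shRNA these genes changed by -1.63, -1.60 and -1.59 in NPC against ESC, and Ezh1 by -1.61. Likeness to Ezh1 is thus mostly a shared step between the states, in a comparison where 25.1% of all genes fell. Nearest to Ezh2 were Raly (0.053), Rad21 (0.053) and Srsf2 (0.057), but Ezh2 varied by only 0.091 about its own mean, so likeness to it is mostly shared flatness. Znrd1as is annotated as antisense to a neighbouring gene, and whether its probes separate the strands was not tested.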

How the data were processed

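Per the submitters' processing notes, the authors used affy, RMA and limma to make the deposited log2 values, 1 per probe set and array; no version or genome build is stated in the labels. RMA includes background correction, quantile normalization and probe summary, and small differences near either end of its scale are compressed. Array medians ranged over 7.70 to 7.79, lower quartiles over 5.84 to 6.11 and upper quartiles over 9.52 to 9.66. The platform annotation gave 18786 of 21212 probe sets a single symbol, 6 several and left 2420 unlisted. By Entrez ID, 18775 were found in RefSeq (GRCm38.p6). Taking the highest-mean probe set of each gene left 18784 genes.

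limma 3.58.1 (R 4.3.3) was then run on these values: group means over all 12 arrays, default lmFit, contrasts.fit and eBayes (8 residual and 4.81 prior degrees of freedom), Benjamini-Hochberg over the 18784 genes, two-sided, with limma's own 95% intervals. Only 3 arrays a group limit the precision. The steps were tested on simulated data with changes of 1 log2 unit. The knockdown changes of the 10 genes were smaller, so that test does not bear on them. Members and lists were chosen with earlier results of these data known. All 10 members are named in all comparisons; other lists give counts and up to 3 called genes of smallest p; Kdm5b checks the labels; 3 likeness genes are named for Ezh1 and Ezh2. Deviations of same-numbered scrambled NPC and ESC arrays correlated at 0.266, 0.286 and 0.334, so the title numbers may pair them, a reading from the data. In every other comparison at least 1 pair was under 0.1. The main limma and permutation tests above did not use such pairing, and the replicate block was run as an alternative.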

Additional observations from a re-analysis of the deposited data

How the results depend on the processing

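The 6 falls in NPC were called with both constructs under every alternative run: quantile normalization, a threshold of 0.01, the arrays of a comparison alone, array weights, a low-value filter (14767 genes), averaging of probe sets, a replicate block, a robust intensity-trended prior, median centring, adjustment over all probe sets and leaving out each array. With the replicate block 6 genes were called with the Jarid1b shRNA and 7 with the scrambled shRNA, as without it, and it changed no other call in the fits over all 12 arrays. On the 6 scrambled arrays alone, an alternative added after seeing the data, 7 were called with the replicate block and 6 without it, the gained gene being Phf1 (adjusted p = 0.0323). Called genes numbered 6 with the Jarid1b shRNA, and 6 to 7 with the scrambled shRNA, when single arrays were left out. The scrambled count was also 6 at the threshold of 0.01 without Phf1, and 8 with quantile normalization, with Ezh2. The knockdown comparisons and their difference had 0 called genes in all of these. The average over states, also added later, had 0 to 1 on leaving out arrays. Scaling moved the median of all genes by at most 0.049 (log2).

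Ezh1 minus Ezh2 was -1.67 with the replicate block (exact sign permutation, p = 0.0312, the smallest possible), -1.74 in scrambled and -1.60 in knockdown arrays alone (exact p = 0.1, the smallest possible), and -1.73 to -1.61 without single arrays.

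Signs turned for uncalled changes near 0; the cause was not tested. With array weights the NPC knockdown change was -0.025 for Jarid2, 0.012 for Phf1 and 0.048 for Aebp2, and the difference of effects -0.0027 for Ezh2 and 0.013 for Aebp2. With median centring, Suz12 was 0.0062 in ESC, Jarid2 -0.0022 in NPC, and the differences of Ezh2 and Mtf2 -0.030 and -0.023. With quantile normalization, Suz12 was 0.024 in ESC, the same differences -0.037 and -0.026, and Phf1 in Jarid1b shRNA NPC against ESC -0.0031. Leaving out single arrays, knockdown in NPC gave -0.080 to 0.0087 for Ezh2, -0.059 to 0.14 for Jarid2, -0.096 to 0.038 for Mtf2, -0.24 to 0.085 for Phf1, -0.020 to 0.077 for Rbbp4 and -0.079 to 0.078 for Aebp2. In ESC it gave -0.081 to 0.012 for Ezh2 and -0.065 to 0.028 for Suz12. The difference of effects ranged over -0.046 to 0.053 for Ezh2, -0.23 to 0.0040 for Jarid2, -0.052 to 0.083 for Mtf2 and -0.40 to 0.092 for Phf19, the average for Eed over -0.067 to 0.00058, and Aebp2 in scrambled NPC against ESC over -0.14 to 0.036.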
